A study of Gallus gallus with 2 samples.

Results

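Notch signalling genes were examined in RNA-seq of hearts from chicken embryos (Gallus gallus) exposed to a free radical generator. The set was defined by 10 gene symbols: the receptors NOTCH1 and NOTCH2, the ligands JAG1, JAG2, DLL1 and DLL4, the sugar transferase LFNG, the DNA-binding factor RBPJ and the target genes HEY1 and HEY2. Of these, 9 were found among the 13011 gene names of the deposited tables, and HEY2 is not listed there under that symbol. There were 2 libraries. The AAPH library came from embryos injected through the air chamber with 100 µL of 2,2-azobis(2-amidinopropane) dihydrochloride (AAPH, 2.6 µmol), starting at Hamburger-Hamilton stage 35 and continuing on every other day until day 10. The saline library came from embryos given saline; the labels give neither its volume nor its timing separately. All eggs were kept at 38 °C and 70% humidity, and hearts of survivors were taken on day 11 (stage 37). The number of hearts per library and the sex of the embryos are not stated in the labels, and embryos that died earlier were not sampled. The comparison asks how an oxidative environment alters cardiac gene expression during development.

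Each group had 1 library, so no difference given here has a replicate check, and no p-value or standard deviation was computed. Values are the authors' FPKM (fragments scaled by transcript length and library size), summed over the transcripts of a gene name. How library size was estimated is not known here. Summed FPKM was 1042407 in the AAPH library and 1248089 in the saline library, and the absolute depth is unknown. Differences are log2((AAPH FPKM + 1)/(saline FPKM + 1)), a scale that understates changes of weakly expressed genes. A gene was counted as higher or lower at 1.5-fold (0.585 on this scale) among the 10106 genes with a mean of 1 FPKM or more. In whole hearts, fewer cells of a type and less RNA per cell cannot be told apart.

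Notch receptors are transmembrane proteins that are activated by ligands of the Delta and Jagged families on neighbouring cells. Ligand binding exposes the receptor to cleavage by ADAM proteases and then by gamma-secretase, and the released intracellular domain joins RBPJ in the nucleus, where it switches on HES and HEY repressors. In the mouse heart, Notch signalling in the endocardium takes part in valve cushion formation and in the growth of ventricular trabeculae, and in arteries it takes part in endothelial identity and smooth muscle maturation.

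Both receptors were expressed, at levels close between the libraries. NOTCH1, the receptor of mouse endocardium and arterial endothelium, was at 9.35 FPKM in the AAPH library and 7.97 FPKM in the saline library, a log2 ratio of 0.21. NOTCH2, which in mice is also needed in smooth muscle of the great arteries, was at 17.5 FPKM in the AAPH library and 16.0 FPKM in the saline library, a log2 ratio of 0.12. Both receptors were thus slightly higher in the AAPH library and short of 1.5-fold. NOTCH2 was the more abundant receptor in both libraries, at 1.87 times NOTCH1 with AAPH and 2.01 times with saline; such a ratio within a library does not depend on how the libraries are scaled.

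Among the ligands, JAG1 had the highest ratio of the set and DLL1 the lowest. JAG1, the ligand whose human gene is mutated in Alagille syndrome, was at 7.26 FPKM in the AAPH library and 5.41 FPKM in the saline library, a log2 ratio of 0.37. That ratio exceeded those of 91.0% of all genes tested and still lay within 1.5-fold. JAG2, its paralog, was at 6.56 FPKM with AAPH and 5.45 FPKM with saline (log2 ratio 0.23). DLL4, the Delta ligand of endothelium, was at 6.47 FPKM with AAPH and 6.03 FPKM with saline (log2 ratio 0.09). DLL1, a Delta ligand of somites and neural progenitors, was the lowest of the set, at 0.655 FPKM with AAPH and 0.935 FPKM with saline (log2 ratio −0.23).

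DLL1 did not reach a mean of 1 FPKM and is left out of the counts. Its ratio can be had from as few as 2 fragments with AAPH and 3 with saline. At those numbers the ratio, 0.701, has a 95% exact binomial (Clopper-Pearson) counting interval of 0.0585 to 6.12, so its direction would not be resolved; the true numbers may be multiples of this pair, and the interval, which covers counting error only, would then be narrower. Such multiples are likely unless the DLL1 transcript is far shorter: the macrophage marker MARCO, at 0.49 FPKM with AAPH, already needs at least 7 fragments. The 2 Jagged genes together were at 13.8 FPKM with AAPH and 10.9 FPKM with saline, and the 2 Delta genes at 7.13 FPKM with AAPH and 6.96 FPKM with saline. The Jagged sum was 1.94 times the Delta sum in the AAPH library and 1.56 times in the saline library. All 4 ligands summed to 21.0 FPKM with AAPH and 17.8 FPKM with saline, which is 0.779 times the receptor sum in the AAPH library and 0.742 times in the saline library.

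LFNG was the most abundant gene of the set in both libraries, and the 1 gene at a mean of 1 FPKM or more with a ratio below 0. LFNG (lunatic fringe) adds N-acetylglucosamine to O-fucose on the Notch extracellular domain, which changes how the receptor responds to Delta and Jagged ligands. It was at 30.4 FPKM in the AAPH library and 32.5 FPKM in the saline library, a log2 ratio of −0.09 that became 0.16 when each library was rescaled to TPM. The other fringe genes, described after their values were seen, were far lower: RFNG was at 8.2 FPKM with AAPH and 9.92 FPKM with saline, and MFNG at 0.509 FPKM with AAPH and 0.871 FPKM with saline. LFNG was 3.71 times RFNG in the AAPH library and 3.27 times in the saline library.

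RBPJ and HEY1, the nuclear end of the pathway, had nearly equal ratios. RBPJ, the factor through which all Notch receptors act on DNA, was at 5.82 FPKM with AAPH and 4.95 FPKM with saline (log2 ratio 0.20). HEY1, a basic helix-loop-helix repressor that in mice is expressed in atrial muscle and endocardium, was at 15.9 FPKM with AAPH and 13.4 FPKM with saline (log2 ratio 0.23). HEY1 was 2.73 times RBPJ in the AAPH library and 2.72 times in the saline library. That equal proportion holds for HEY1 summed over its 2 transcripts. The major transcript alone was at 12.9 FPKM with AAPH and 13.4 FPKM with saline (log2 ratio −0.06).

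**Figure D1:**
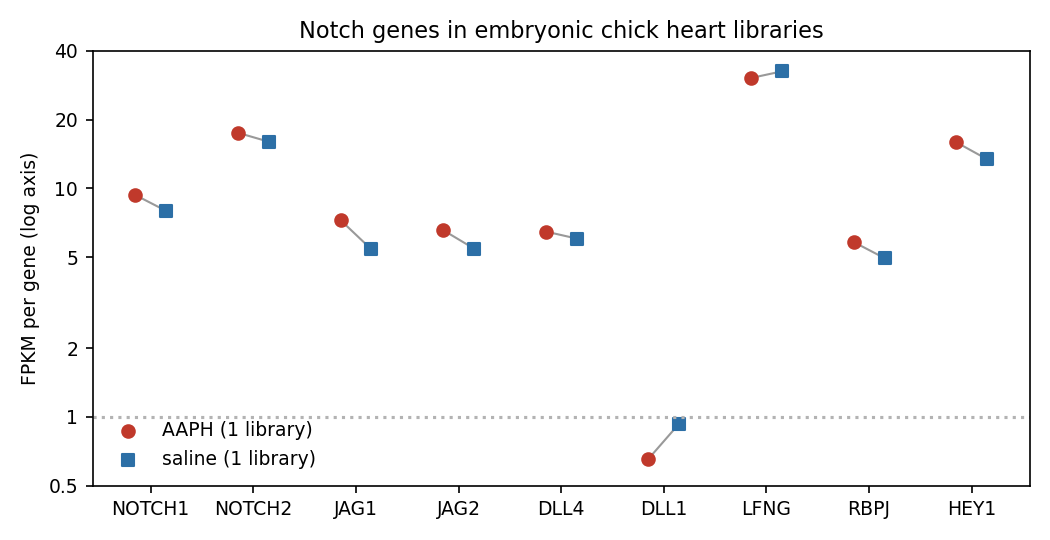
FPKM of the 9 genes found (vertical log axis), with 1 point per library: circles for AAPH, squares for saline, joined per gene. LFNG lies highest at 30.4 and 32.5 FPKM, DLL1 lies under the dotted line at 1 FPKM, and the other 7 genes have the AAPH point slightly above the saline point.

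The order of the levels was similar in the 2 libraries. In the AAPH library it ran LFNG, NOTCH2, HEY1, NOTCH1, JAG1, JAG2, DLL4, RBPJ and DLL1. In the saline library the same genes held the first 4 and the last 2 places, while DLL4 came before JAG2 and JAG1. Those 3 ligands span 6.47 to 7.26 FPKM with AAPH and 5.41 to 6.03 FPKM with saline, so their order changed between libraries. LFNG exceeded 79.3% of the tested genes in the AAPH library and 79.6% in the saline library. RBPJ, the lowest of the genes at 1 FPKM or more, exceeded 32.2% with AAPH and 28.1% with saline.

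Of the 8 genes at a mean of 1 FPKM or more, 0 passed 1.5-fold in either direction. Over all 10106 genes tested, 6.66% passed it (2.73% higher and 3.93% lower in the AAPH library), so a count of 0 in 8 lies near the background. The ratios of 7 of the 8 lay above 0, against 50.5% of all genes, and their median was 0.20, against 0.0039 for all genes, whose quartiles were −0.19 and 0.18. Among the 5023 genes with means between those of RBPJ and LFNG (5.38 to 31.5 FPKM), the median was 0.01, the quartiles were −0.16 and 0.17, 52.2% lay above 0 and 4.86% passed 1.5-fold. The 8 genes share a pathway and cells, so they are not independent observations. With 2 libraries, the pattern of a gene is a single ratio, and it is shared widely: 521 other tested genes lay within 0.05 of the log2 ratio of JAG1 and 1473 within 0.05 of that of DLL4, the fewest and the most among the 8.

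How the libraries are scaled moved all of these ratios together. Rescaling to TPM moved the median over all genes from near 0 to 0.23, and rescaling without haemoglobin and mitochondrial-genome genes moved it to 0.21. The median of the 8 Notch genes was then 0.42 and 0.41, about as far above all genes as before. All 8 lay above 0 under both rescalings, LFNG included, but so did 79.2% (TPM) and 77.2% of all genes. JAG1 came closest to the threshold, at 0.58 and 0.57. With the pseudocount of 1, none of the 8 passed 1.5-fold under either rescaling, which 10% (TPM) and 9.73% of all genes did. The pseudocount shrinks such ratios: as deposited, JAG1 was at 0.37 with a pseudocount of 1 and 0.42 with 0.1. A smaller pseudocount was not combined with a rescaling. In plain ratio, JAG1 was at 1.34 as deposited. Rescaling to TPM multiplies every plain ratio by the same factor, the saline total of 1248089 over the AAPH total of 1042407. That carries the plain ratio of JAG1 past 1.5-fold, so its place under the threshold there rests on the pseudocount of 1. The split of all genes past 1.5-fold turned with the scaling, from 276 higher and 397 lower as deposited to 849 higher (8.4%) and 162 lower (1.6%) after rescaling to TPM.

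**Figure D2:**
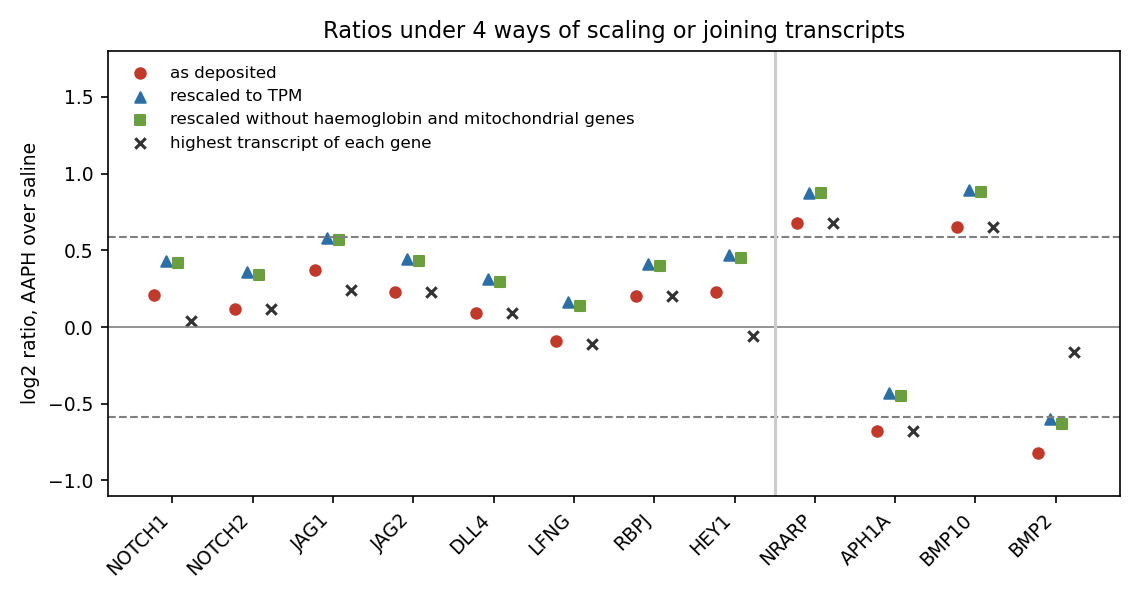
Log2 ratio of AAPH over saline (vertical axis) for the 8 Notch genes left of the grey line and for 4 further pathway genes right of it, under 4 ways of scaling or joining transcripts. Dashed lines mark 1.5-fold. With the pseudocount of 1, all 8 Notch genes stay between them, JAG1 just short under both rescalings. HEY1 is at −0.06 when its more abundant transcript alone is taken.

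For part of the set, the difference between libraries lay in a minor transcript. The 9 genes comprise 13 assembled transcripts: 5 genes have 1 and 4 genes have 2 (NOTCH1, JAG1, LFNG and HEY1). The minor HEY1 transcript was at 3.03 FPKM in the AAPH library and 0.00878 FPKM in the saline library, or 19.1% of the gene with AAPH and 0.0653% with saline. The major HEY1 transcript was at 12.9 FPKM with AAPH and 13.4 FPKM with saline, a log2 ratio of −0.06, so the higher HEY1 sum with AAPH came from the minor transcript. The same held in part for NOTCH1, whose minor transcript was at 2.87 FPKM with AAPH and 1.72 FPKM with saline, while its major transcript was at 6.48 FPKM with AAPH and 6.25 FPKM with saline. JAG1 differed in both: its major transcript was at 6.56 FPKM with AAPH and 5.41 FPKM with saline, and its minor transcript was at 0.697 FPKM with AAPH and listed at 0 with saline. In LFNG the major transcript held 97.1% with AAPH and 98.1% with saline.

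Such shifts were common in these libraries. Among 6743 gene names with more than 1 transcript, 40.5% moved at least as many percentage points between transcripts as HEY1 (19.0 points), and the median was 14.4 points. Taken singly, 1 of 10 Notch transcripts at a mean of 1 FPKM or more passed 1.5-fold (the minor one of HEY1), against 30.8% of all 18434 such transcripts. Both transcripts of each of the 4 genes carry the same nearest Ensembl transcript, and reads of overlapping transcripts are divided by estimation, so the structures behind these values are not known here.

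**Figure D3:**
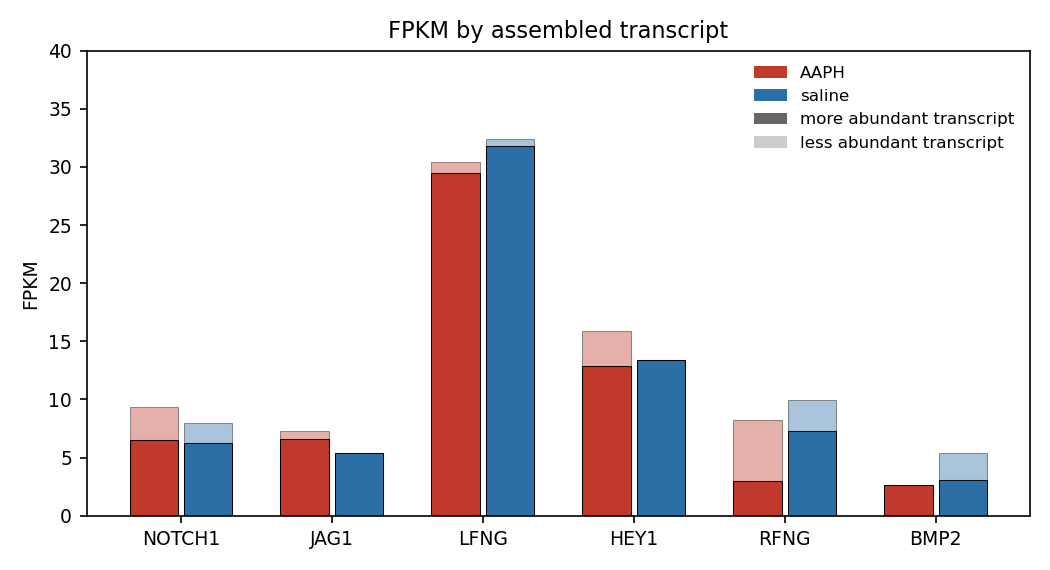
FPKM (vertical axis) by assembled transcript for 6 genes with 2 transcripts, AAPH bar left and saline bar right of each pair; dark segments are the transcript with the larger sum over both libraries and pale segments the other. The pale segment of HEY1 is visible with AAPH alone (3.03 against 0.00878 FPKM), RFNG shifts towards its pale transcript with AAPH, and BMP2 shows its pale transcript with saline alone.

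The rest of the pathway was described through 6 lists of 82 genes, of which 68 were found and 62 reached a mean of 1 FPKM. Of these 62, 3 were higher and 2 lower at 1.5-fold in the AAPH library, or 8.06%, close to the 6.66% of all genes. After rescaling to TPM the count was 5 higher and 1 lower, where 8.4% of all genes were higher and 1.6% lower. The median of the 62 was 0.07 as deposited, and 56.5% lay above 0. The 5 genes past 1.5-fold as deposited included the gamma-secretase subunit APH1A, the target NRARP, and the growth factors BMP10 and BMP2.

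In the list of receptor cleavage, 1 of 7 tested genes was higher and 1 lower (median 0.09). APH1A, a subunit that stabilises the gamma-secretase complex, was at 12.9 FPKM with AAPH and 21.3 FPKM with saline (log2 ratio −0.68), and came within 1.5-fold under both rescalings (−0.43 and −0.45). ADAM10, the protease that cuts the receptor first, was at 19.9 FPKM with AAPH and 17.2 FPKM with saline (log2 ratio 0.20).

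Among target genes outside the set, NRARP alone passed 1.5-fold. Of 4 tested genes of that list, 1 was higher and 0 lower, with a median of 0.21. NRARP, an ankyrin repeat protein induced by Notch that dampens the pathway in return, was at 6.79 FPKM with AAPH and 3.88 FPKM with saline (log2 ratio 0.68, and 0.87 under both rescalings). NRARP was 0.427 times HEY1 in the AAPH library and 0.288 times in the saline library. As few as 5 fragments with AAPH and 3 with saline would give its ratio of 1.75, and the counting interval would then run from 0.341 to 11.3. HEYL, a relative of HEY1, was more abundant than HEY1 in both libraries, at 19.0 FPKM with AAPH and 16.7 FPKM with saline (log2 ratio 0.18). The entry named HES1 was on the other side, at 6.9 FPKM with AAPH and 8.76 FPKM with saline (log2 ratio −0.30). In the RefSeq gene table HES1 is both a gene symbol and a synonym of HES4, so which of them this entry holds was not settled. The ratio of this HES1 entry can be had from as few as 3 fragments with AAPH and 4 with saline, at which the counting interval would run from 0.115 to 4.66. For NRARP and this entry the true numbers may be multiples of the pair, and the intervals would then be narrower. MARCO, at 0.49 FPKM with AAPH, already needs at least 7 fragments there. Multiples are therefore likely for both genes, unless their transcripts are far shorter. HES5, the fourth target tested and named after its value was seen, was at 1.9 FPKM with AAPH and 1.46 FPKM with saline (log2 ratio 0.24).

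**Figure D4:**
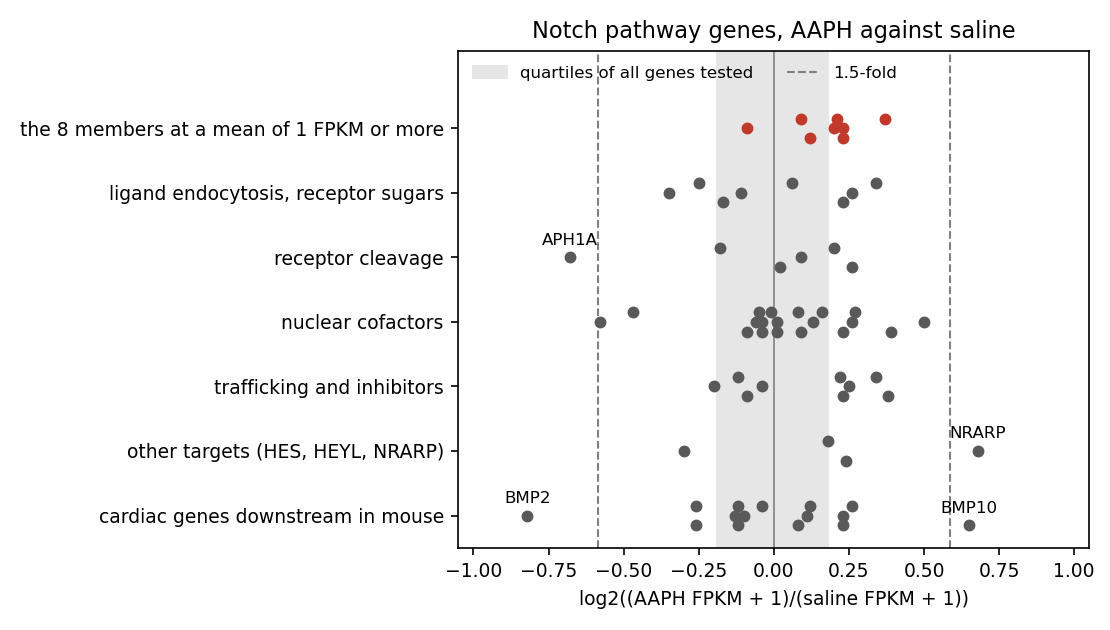
Log2 ratio of AAPH over saline (horizontal axis) for the 8 Notch genes (red, top row) and for other pathway genes in 6 lists, 1 point per gene, with 1 gene past 1.5-fold not drawn. The grey band spans the quartiles of all genes tested (−0.19 to 0.18) and dashed lines mark 1.5-fold; the 4 labelled genes lie outside them, while the 8 Notch genes lie between −0.09 and 0.37.

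The list of genes that act downstream of Notch in the mouse heart held 2 calls, in opposite directions. Of 15 tested genes, 1 was higher and 1 lower, with a median of −0.04 that became 0.14 after rescaling to TPM. BMP10 (BMP-10 in the tables), a growth factor of trabecular myocardium, was at 30.7 FPKM with AAPH and 19.3 FPKM with saline (log2 ratio 0.65, and 0.89 and 0.88 under the rescalings). BMP2, which in mice and chicks induces the endocardium of the valve cushions, was at 2.61 FPKM with AAPH and 5.36 FPKM with saline (log2 ratio −0.82, and −0.60 and −0.63 under the rescalings). The BMP2 difference lay in a second transcript, at 0.000159 FPKM with AAPH and 2.32 FPKM with saline; the first was at 2.61 FPKM with AAPH and 3.04 FPKM with saline, within 1.5-fold. GATA4, a cardiac transcription factor and the most abundant gene of the list, was at 61.1 FPKM with AAPH and 51.0 FPKM with saline (log2 ratio 0.26).

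The other 3 lists held no call as deposited. Of 8 tested genes for ligand endocytosis and receptor sugars, 0 passed 1.5-fold and the median was −0.02; POGLUT1, which adds O-glucose to Notch, was at 15.8 FPKM with AAPH and 18.0 FPKM with saline, and POFUT1, which adds the O-fucose that fringes extend, at 11.5 FPKM with AAPH and 12.4 FPKM with saline. Of 9 tested genes for trafficking and inhibition, 0 passed and the median was 0.22; DTX4, a deltex ubiquitin ligase, was at 13.5 FPKM with AAPH and 14.5 FPKM with saline, and AAK1, a kinase of endocytosis, at 14.8 FPKM with AAPH and 12.5 FPKM with saline. Of 19 tested nuclear cofactors, 0 passed and the median was 0.01. HDAC2, a histone deacetylase, was at 190 FPKM with AAPH and 197 FPKM with saline. SNW1, a splicing factor that also binds the Notch intracellular domain, was just short of the threshold, at 77.4 FPKM with AAPH and 116 FPKM with saline (log2 ratio −0.58, summed over 2 loci that carry this name). Under both rescalings 2 cofactors passed 1.5-fold on the higher side, among them TLE1, a groucho corepressor. So did 8.4% (TPM) and 7.99% of all genes tested. Without rescaling but with a pseudocount of 0.1, SNW1 was lower (−0.59) and TLE1 higher (0.64) at 1.5-fold, where 10.4% of all genes passed.

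Markers of the cells that could carry Notch transcripts were read beside these values. Heart muscle markers were abundant in both libraries, with MYL2 at 11428 FPKM with AAPH and 13293 FPKM with saline, TNNT2 at 5342 FPKM with AAPH and 5989 FPKM with saline, and ACTC1 at 2598 FPKM with AAPH and 2629 FPKM with saline. The 9 of 10 muscle markers found summed to 23538 FPKM with AAPH and 26733 FPKM with saline (median log2 ratio −0.16, and 0.10 after rescaling to TPM). The 16 of 20 endothelial and endocardial markers found summed to 429 FPKM with AAPH and 419 FPKM with saline, none was at 0 in either library, and 0 passed 1.5-fold as deposited. Their median log2 ratio was 0.10, between that of all genes and that of the 8 Notch genes. The 3 most abundant were the connexin GJA5 (137 FPKM with AAPH and 121 FPKM with saline), the cadherin CDH5 (57.9 FPKM with AAPH and 47.5 FPKM with saline) and the adhesion molecule PECAM1 (42.4 FPKM with AAPH and 47.3 FPKM with saline). Without GJA5, the sum of this list would be slightly larger with saline than with AAPH. Which cells the GJA5 transcripts came from was not tested, so the sum is not a measure of endothelial content. Of the 16 markers, 10 had a log2 ratio above 0 and 6 below. ROBO4, SOX17, SOX7 and PLVAP are not listed under these names.

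Erythroid and neuronal markers lay below 0 at the median, under both rescalings as well. The 6 erythroid markers found summed to 2293 FPKM with AAPH and 3450 FPKM with saline, with 4 lower at 1.5-fold and a median of −0.99. The 9 neuronal and neural crest markers found summed to 133 FPKM with AAPH and 180 FPKM with saline. TUBB3 held most of both sums (103 FPKM with AAPH and 135 FPKM with saline). Of the 8 tested, 4 were lower at 1.5-fold (2 after rescaling to TPM) and the median was −0.55. After rescaling to TPM it was −0.31, where the median of all genes was 0.23 and that of the Notch genes 0.42. The 9 epicardial and fibroblast markers found summed to 613 FPKM with AAPH and 532 FPKM with saline (median 0.21, WT1 lower as deposited and not after rescaling). The 6 smooth muscle and pericyte markers found summed to 99.8 FPKM with AAPH and 117 FPKM with saline (median −0.05, RGS5 lower), and the 5 macrophage markers found to 23.6 FPKM with AAPH and 20.8 FPKM with saline. No marker found was at 0 in either library. The part of these differences in the Notch values was not tested.

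**Figure D5:**
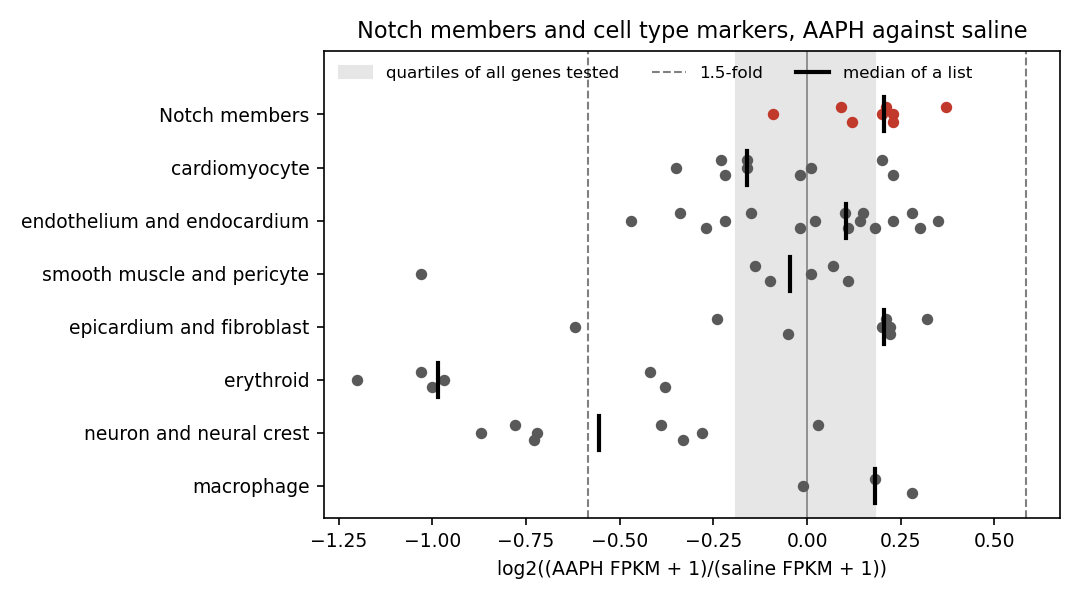
Log2 ratio of AAPH over saline (horizontal axis) for the 8 Notch genes (red) and for tested markers of 7 cell classes, 1 point per gene, with black bars at list medians. The Notch median (0.20) is close to those of epicardial and fibroblast markers (0.21) and of the 3 macrophage markers tested (0.18). The epicardial and fibroblast markers are spread, with 5 above 0 and 3 below. Endothelial markers centre on 0.10, and erythroid (−0.99) and neuronal (−0.55) markers lie lower.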

How the data were processed

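The submitters' processing notes name Cuffdiff, Cufflinks 2.2.1, TopHat2 2.1.1 and bcl2fastq. Genome build and annotation were not given in the sources used here. Per the file headers, the authors deposited FPKM per assembled transcript. Each table lists the same 27335 transcripts. The 1968 transcripts without a gene name (20.6% of FPKM with AAPH and 18.2% with saline) were left out of the gene values. They stayed in the library totals used for rescaling to TPM. FPKM was summed per name, with a pseudocount of 1 and a minimum mean of 1 FPKM; with 1 library per group no test was run. FPKM hide the depth; a fragment in the AAPH library gave 1.05 times the FPKM of one in the saline library, read from 773 single-transcript genes at low values, 88.6% of which gave ratios of whole numbers up to 10 (relative tolerance 0.0002).

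Of 168 list symbols, 137 were found, 6 of them through letter case or synonyms in a RefSeq table (assembly GRCg7b). The members and lists were chosen with earlier results of these data known. Named genes were the members, pathway genes past 1.5-fold, the 2 most abundant of each pathway list and the 3 most abundant muscle and endothelial markers; others were chosen after their values were seen. Some items are not reported here. Alternatives were other pseudocounts, filters, scalings, thresholds and ways of joining transcripts. No sequence is printed. The tools were matplotlib 3.10.9, scipy 1.17.1, pandas 2.3.3, numpy 2.4.6 and Python 3.11.15, and the ratio calculation was tested on simulated data.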

Additional observations from a re-analysis of the deposited data

How the results depend on the processing

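Over 9 alternatives, each changing 1 choice, the count of Notch genes past the threshold stayed at 0. Some of these could not have raised it. The 2-fold threshold is stricter, and the filter at 5 FPKM kept the same 8 genes with the same ratios. Dropping the filter added only DLL1. No alternative joined a smaller pseudocount to a rescaling, under which JAG1 lay just short of the threshold. In plain ratio JAG1 passes 1.5-fold after rescaling to TPM, so the count of 0 there rests on the pseudocount of 1. With each transcript taken on its own the count was 1, the minor transcript of HEY1. The median log2 ratio of the Notch genes was 0.42 after rescaling to TPM, 0.41 when haemoglobin and mitochondrial-genome genes were left out of the rescaling, and 0.1 with the highest transcript of each name, where NOTCH1 was at 0.04 and HEY1 at −0.06. LFNG ranged from −0.11 to 0.16, with both rescalings above 0. DLL1 ranged from −0.45 (pseudocount 0.1) to −0.10 (TPM). The other pathway genes past 1.5-fold numbered 5 of 62 as reported, 7 of 62 with a pseudocount of 0.1 and 3 of 48 at a mean of 5 FPKM or more. They numbered 11 of 61 with the highest transcript of each name and 0 of 62 at 2-fold. All genes past 1.5-fold numbered 673 as reported (6.66%), 1056 with a pseudocount of 0.1 (10.4%) and 380 at a mean of 5 FPKM or more (5.18%). They numbered 1011 after rescaling to TPM (10%), 1604 with the highest transcript of each name (16.2%) and 115 at 2-fold (1.14%). The causes of these changes were not tested beyond the construction of each alternative. No paired analysis was possible because each group has 1 library, and for the same reason no library could be left out. The unknown depth limits what can be said of weakly expressed genes such as DLL1.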

Other observations

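Proteins outside the Delta and Jagged families that have been reported to bind Notch were listed after the other values were seen (8 genes, of which 7 reached a mean of 1 FPKM). DNER, a transmembrane protein of neurons with EGF repeats, had the highest ratio, at 26.0 FPKM in the AAPH library and 13.7 FPKM in the saline library. Its log2 ratio of 0.88 exceeded those of 99.4% of all genes tested and was 1.12 after rescaling to TPM. The matricellular gene THBS2 was at 30.2 FPKM with AAPH and 22.7 FPKM with saline (log2 ratio 0.40). It was higher at 1.5-fold under both rescalings, as were 8.4% (TPM) and 7.99% of all genes. NOV, another matricellular protein, was at 5.27 FPKM with AAPH and 4.46 FPKM with saline (0.20). EGFL7, a secreted endothelial protein, lay on the other side, at 27.9 FPKM with AAPH and 39.1 FPKM with saline (−0.47), while the microfibril genes MFAP2 (−0.09) and MFAP5 (0.18) and the contactin CNTN1 (0.01) were close. At 1.5-fold, 1 of the 7 was higher and 0 lower, with a median of 0.18. Of all genes, 2.73% were higher and 3.93% lower. Neuronal markers summed to 133 FPKM with AAPH and 180 FPKM with saline. Most of both sums was TUBB3 (103 FPKM with AAPH and 135 FPKM with saline). Of the 8 neuronal markers tested, 7 had a log2 ratio below 0 and 1 above, with a median of −0.55. Which cells the DNER transcripts came from was not tested. None of these differences has a replicate check.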
